A study of Mus musculus with 12 samples.

Results

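Cardiomyocyte RNA of MRTF double-knockout mice was compared with that of control mice after pressure overload, in 3 dKO TAC and 3 control TAC libraries of the 12 in the series. The dKO mice carried the alpha-MHC MerCreMer transgene on 1 allele (written MHC-MerCreMre/+ in the labels) together with Mrtf-a-/- and Mrtf-bflox/flox, and control mice carried the same transgene alone (alphaMHC-MerCreMre/+). The transgene drives a tamoxifen-activated Cre from the promoter of the cardiac myosin heavy chain, so the Mrtf-b alleles are deleted only where that promoter is active and after tamoxifen, whereas the Mrtf-a mutation is carried by every cell throughout life. All mice were male and received 3 daily injections of tamoxifen at 30 ug/g when 8 weeks old. The aorta was then narrowed (trans-aortic constriction, TAC), which loads the left ventricle with pressure, and hearts were taken 7 days later at 11 weeks. Surgery was at 10 weeks per the labels' protocols and at 8 weeks per the series' design text. Cardiomyocytes were released by Langendorff perfusion and separated from other cells by sedimentation for 10 min. The other 6 libraries, 3 dKO sham and 3 control sham, had surgery without constriction and are used here for the estimate of spread and for 1 comparison near the end. The labels number the replicates without saying that each is a separate heart, so p-values measure the spread between these libraries, which may be technical.

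MRTF-A and MRTF-B, encoded by Mkl1 and Mkl2 in the count table, are coactivators that sit in the cytoplasm bound to monomeric actin. When actin polymerises they are released, enter the nucleus and bind serum response factor (SRF), which recognises the CArG box, a short A/T-rich sequence flanked by C and G pairs. Their targets are mostly actins, actin-binding proteins and parts of the contractile apparatus. Mechanical load on the heart is one of the conditions known to engage this pathway, and reappearance of fetal genes such as skeletal actin Acta1 is a hallmark of pressure overload in rodents.

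The 6 TAC libraries held 23784132 to 28007352 counts, and levels below are CPM (read counts scaled to a common library size by TMM). dKO TAC replicate 2 stood apart from its group. Mitochondrially encoded genes took 15.3% of its counts, against 25.1% and 24.0% in dKO TAC replicates 1 and 3. Its counts also fell with transcript length relative to those replicates (Spearman rho across 9899 genes -0.589), against -0.0929 to 0.108 in the control TAC libraries. dKO sham replicate 1, which enters the shared estimate of spread, had the same trend (-0.62). In control TAC replicate 1 the summed level of 18 fibroblast markers was 1210.4 CPM, against 2440.0 and 4989 CPM in control TAC replicates 2 and 3. Results are therefore given with and without dKO TAC replicate 2 and control TAC replicate 1.

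Loss of both MRTFs under pressure overload went with 45 genes higher and 18 lower among 14712 tested (edgeR quasi-likelihood F test fitted over all 12 libraries, threshold 0.05 on the Benjamini-Hochberg adjusted p). These are 0.306% and 0.122% of the genes tested. Skeletal actin Acta1 and the phospholipid-modifying enzyme Hrasls were among the genes with the largest decreases, and the secreted protein lipocalin Lcn2 and ceruloplasmin Cp were among those that rose. Changes were large where they were called, with 42 genes at least 2-fold higher and 17 at least 2-fold lower. In all 63 genes the dKO TAC and control TAC libraries did not overlap, which was true of 17.6% of all genes tested. Without dKO TAC replicate 2, 62 genes were higher (0.414%) and 17 lower (0.114%) of 14970 tested, 49 of the 63 among them. Without control TAC replicate 1, 8 genes were higher (0.0533%) and 8 lower (0.0533%) of 15013 tested, 13 of the 63 among them. The direction was kept by all 63 genes in both. In fits that left out each of the 12 libraries in turn, 8 genes were called every time, namely Mkl1, Lcn2, Psca, Ndufs5, BC002163, Eif3j2, Rpl3-ps1 and Gm14085. Mkl1 is a targeted gene and Psca lies 6.3 Mb from it. Ndufs5, BC002163, Eif3j2, Rpl3-ps1 and Gm14085 have near-identical copies, so their counts are uncertain, as described near the end. Calls numbered 11 with dKO TAC replicate 1 left out and 8 with replicate 3 of that group left out, 23 and 28 without control TAC replicates 2 and 3, and 26 to 252 without a sham library. Of the genes described below, Acta1 and Cp kept the call in 11 of these 12 fits, Hrasls in 10, Mylk4 and Sh3kbp1 in 9, Masp1 in 8, Frmd5 in 7, Gpx3 and Fstl3 in 6, and Kcnip2 and Serpinb1c in 5. Arc and Shisa3 kept it in 4, Cnn2 and Sh3rf2 in 3, and Cxadr, Nt5e, Star, Dnajb5 and mt-Ti in 2.

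**Figure D1:**
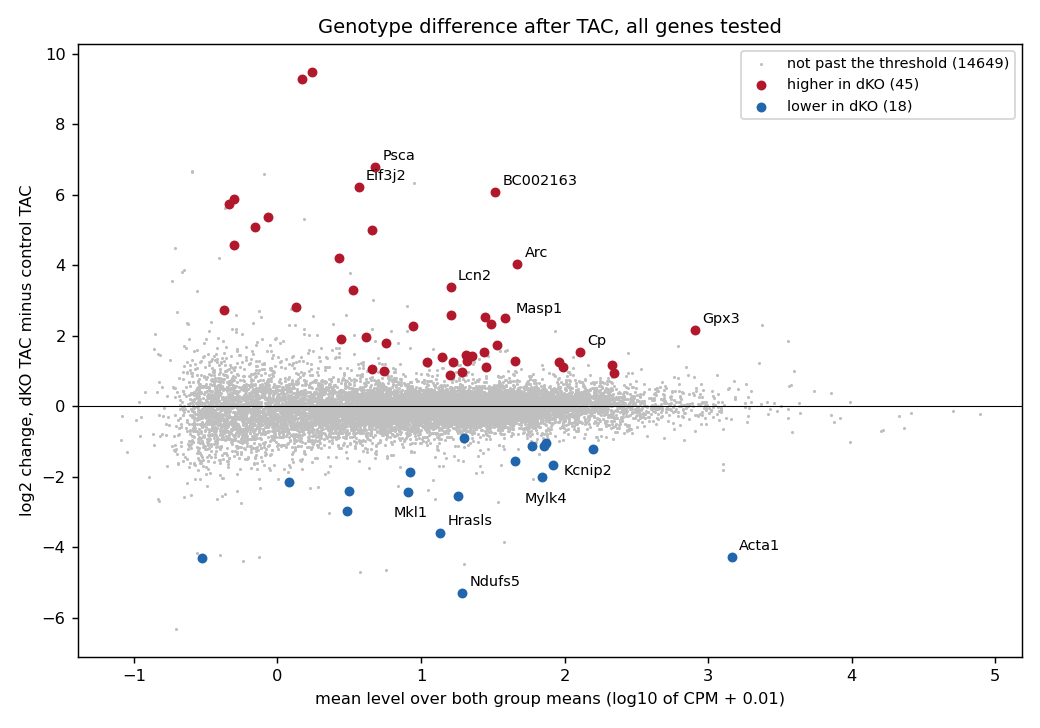
Log2 change in dKO TAC relative to control TAC (vertical) against the mean level of each gene, the log10 of the mean of both group means in CPM plus 0.01 (horizontal), for 14712 genes. Red points are the 45 genes higher in dKO, blue points the 18 lower and grey points those not past the threshold, and Acta1 is the blue point at the highest level, at -4.27.

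The targeted genes were examined first. Mkl1 lies on chromosome 15 from 81012281 to 81190757 (GRCm38). It had 2.5, 2.93 and 2.22 CPM in dKO TAC, against 9.32, 16 and 15.6 CPM in control TAC. Each dKO library lay below each control library, at a log2 change of -2.42 ± 0.27 (SE; edgeR Benjamini-Hochberg adjusted p 0.00182). The adjusted p was 0.00663 without dKO TAC replicate 2 and 0.00149 without control TAC replicate 1. Mkl2 lies on chromosome 16 from 13256481 to 13417529. It had 28.1, 18.1 and 24.5 CPM in dKO TAC and 36, 30.1 and 37 CPM in control TAC. The groups did not overlap, yet the change of -0.54 ± 0.23 was not past the threshold (edgeR Benjamini-Hochberg adjusted p 0.518). Counts over the whole of Mkl2 include exons outside the floxed part and RNA of cells in which Cre is not active, so this level says little about how complete the deletion was. Myocd, the related SRF cofactor myocardin, had 50.5, 25.3 and 54.6 CPM in dKO TAC and 52.2, 38.8 and 40.1 CPM in control TAC, with no called difference (-0.01 ± 0.36, edgeR Benjamini-Hochberg adjusted p 0.998).

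The clearest change in a direct MRTF-SRF target was that of Acta1, the skeletal muscle form of alpha-actin. Acta1 lies on chromosome 8 from 123891769 to 123894751. It had 63.1, 261 and 107 CPM in dKO TAC, against 3155, 3539 and 1658 CPM in control TAC. The highest dKO library lay well below the lowest control library, at a log2 change of -4.27 ± 0.56 (edgeR Benjamini-Hochberg adjusted p 0.00785). Without dKO TAC replicate 2, the highest of the dKO libraries, the change was -5.02 (adjusted p 0.00246), and without control TAC replicate 1 it was -4.17 (0.0275). The call was lost in 1 of the 12 fits that left out a library, at an adjusted p of 0.0708 without dKO TAC replicate 3. Its best match in another gene, a stretch of 239 nt of Actb at 92.47% identity, covers 16.5% of the transcript. Cnn2, which encodes the actin-binding protein calponin 2, had 20.1, 33 and 15.7 CPM in dKO TAC, against 51.3, 84.9 and 67.5 CPM in control TAC. Its change was -1.56 ± 0.28 (edgeR Benjamini-Hochberg adjusted p 0.0376), with adjusted p of 0.0137 without dKO TAC replicate 2 and 0.0671 without control TAC replicate 1.

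These are the only MRTF-SRF targets called in the fit over all 12 libraries, and both carry a CArG box in the promoter window of RefSeq (GRCm38.p6, 250 bases before to 50 bases after the transcription start). The 250 bases before each start are shown from 5′ to 3′ on the strand of the gene, with the CArG box in capitals. The Acta1 stretch is chr8:123894776-123895025 on the minus strand, with the box starting 73 bases before the start. The Cnn2 stretch is chr10:79988350-79988599 on the plus strand, with the box starting 56 bases before the start.
Acta1: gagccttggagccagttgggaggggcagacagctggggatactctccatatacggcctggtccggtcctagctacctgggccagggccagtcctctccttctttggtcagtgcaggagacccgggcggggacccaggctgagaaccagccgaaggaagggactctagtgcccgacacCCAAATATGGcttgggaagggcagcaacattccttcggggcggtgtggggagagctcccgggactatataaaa
Cnn2: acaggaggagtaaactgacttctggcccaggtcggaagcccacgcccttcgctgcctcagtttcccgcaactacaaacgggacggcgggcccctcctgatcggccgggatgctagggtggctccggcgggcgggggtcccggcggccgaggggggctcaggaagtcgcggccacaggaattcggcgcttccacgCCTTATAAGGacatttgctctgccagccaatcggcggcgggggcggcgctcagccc

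Srf itself, cardiac actin Actc1 and the myosin light chain Myl9 carry boxes too, and their windows of 60 bases are shown, with 1 box in capitals, because their levels are described next. The windows are chr17:46556210-46556269 (minus strand, box 82 bases before the start), chr2:114052888-114052947 (minus strand, 47 bases before) and chr2:156775278-156775337 (plus strand, 161 bases before). Srf holds a second box that starts 62 bases before its start, written in lower case in its line.
Srf: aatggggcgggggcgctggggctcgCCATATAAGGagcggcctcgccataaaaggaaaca
Actc1: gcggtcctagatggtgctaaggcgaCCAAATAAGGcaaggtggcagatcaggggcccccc
Myl9: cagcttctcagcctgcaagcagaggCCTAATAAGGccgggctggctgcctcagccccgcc

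The wider group held 36 MRTF-SRF cytoskeletal targets. Of these, 2 fell (Acta1 and Cnn2), none rose and 34 did not pass, against 0.122% and 0.306% of all genes tested. Their median log2 change was -0.52, against -0.03 over all genes tested, and 29 of the 36 had a negative estimate. Over all 14712 genes tested 7941 estimates were negative and 6771 positive. Markers of other cells had negative estimates too, in 16 of 16 endothelial (median -0.32), 17 of 18 fibroblast (-0.28), 20 of 21 macrophage (-0.28) and 10 of 12 smooth muscle and pericyte genes (-0.32). Their part in the medians of the targets was not tested. The median was -0.71 without dKO TAC replicate 2 and -0.68 without control TAC replicate 1. Srf, the DNA-binding partner, had 52.1, 59.6 and 54.4 CPM in dKO TAC, against 105, 98.6 and 80.8 CPM in control TAC, groups that did not overlap. Its change of -0.77 ± 0.18 was not past the threshold (edgeR Benjamini-Hochberg adjusted p 0.101). Srf passed with DESeq2 (Benjamini-Hochberg adjusted p 0.00395). In edgeR it passed with the transcript-length trend removed (0.0296) and without dKO sham replicate 1 (0.0242). It did not pass with the 6 TAC libraries alone (edgeR, 0.117).

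The other actins had lower levels in dKO TAC without passing the test. Actc1, the main actin of the adult heart, had 5554, 7768 and 6201 CPM in dKO TAC, against 14949, 13814 and 10443 CPM in control TAC. Its change was -1.01 ± 0.29 (edgeR Benjamini-Hochberg adjusted p 0.215). Acta2, the smooth muscle form, had 23, 51.2 and 15.7 CPM in dKO TAC, against 74.8, 145 and 127 CPM in control TAC, at -1.95 ± 0.42 (0.0802). Neither pair of groups overlapped. The cytoplasmic actins Actb and Actg1 had estimates of -0.85 and -0.83 (0.39 and 0.363), with the highest dKO library of Actb, 411 CPM in replicate 2, above the lowest control library, 382 CPM.

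Among regulators and cross-linkers of actin filaments in the list, Myl9, a regulatory light chain of non-muscle and smooth muscle myosin, had 8.86, 16.1 and 5.95 CPM in dKO TAC and 19.1, 38.6 and 56.1 CPM in control TAC (-1.88 ± 0.46, edgeR Benjamini-Hochberg adjusted p 0.124). Tropomyosin Tpm2 had 11.9, 20.5 and 8.34 CPM in dKO TAC and 37.5, 40.6 and 29.6 CPM in control TAC (-1.4 ± 0.41, 0.226). The LIM protein Pdlim7 had 22.9, 26.8 and 18.8 CPM in dKO TAC and 34.7, 62.8 and 61.3 CPM in control TAC (-1.21 ± 0.25, 0.066). Left without control TAC replicate 1, it passed (edgeR, Benjamini-Hochberg adjusted p 0.0429). In each of these 3 genes the groups did not overlap. Not all targets had lower estimates. Ankrd1, a stress-inducible titin-binding ankyrin repeat protein, had 5631, 5537 and 4843 CPM in dKO TAC, against 1966, 3390.2 and 2568 CPM in control TAC (1.01 ± 0.29, 0.215). Vcl (vinculin), Flnc (filamin C) and Tagln had estimates of 0.2, 0.02 and -0.03.

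Leaving out both libraries with the transcript-length trend, dKO TAC replicate 2 and dKO sham replicate 1, raised the calls to 353 higher (2.37%) and 155 lower (1.04%) of 14923 genes, with all 63 genes among them. In that fit 11 of the 36 targets fell and none rose: Acta1, Acta2, Actb, Actg1, Actc1, Cnn2, Srf, Myl9, Tpm2, Smtn and Pdlim7. Estimates in it were -2.57 for Acta2, -1.28 for Actb, -1.15 for Actg1, -1.15 for Actc1 and -2.35 for Myl9, at adjusted p (edgeR, Benjamini-Hochberg) of 0.00785, 0.0331, 0.0371, 0.0279 and 0.0302.

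The CArG box, searched as CC, then 6 bases that are each A or T, then GG, which is its own reverse complement, was present in 11 of the 32 MRTF-SRF targets that have a promoter window (34.4%). It was present in 1.63% of all 32851 windows and in 1.61% of the 10917 tested genes with a window. The targets with a box had a median log2 change of -0.77, with 8 of 11 negative, and the 21 without one had -0.42, with 17 negative. Among genes lower in dKO TAC 2 of 13 with a window held a box, and among genes higher 1 of 25 did, Tal2. A box in this window is a match of letters and not a measured binding site, and a window without one says nothing of more distant boxes.

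**Figure D2:**
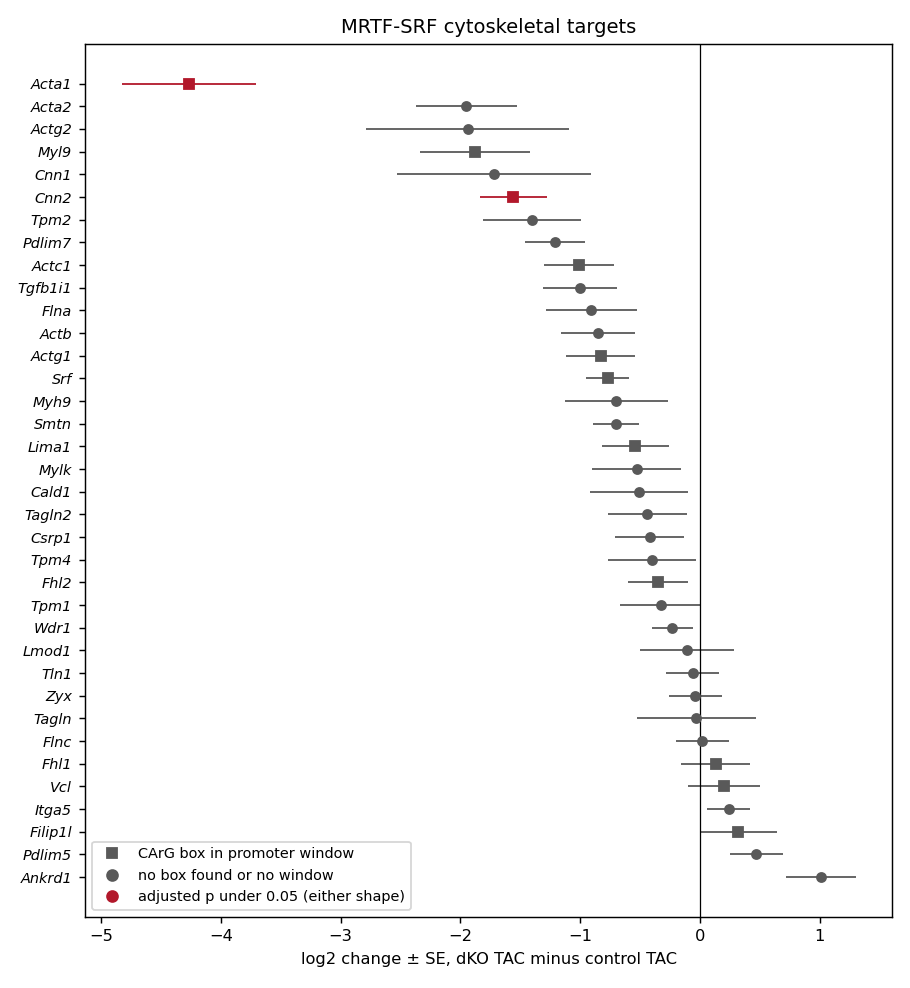
Log2 change ± SE in dKO TAC relative to control TAC (horizontal) of 36 MRTF-SRF cytoskeletal targets, one per line. Squares have a CArG box in the promoter window, and circles have either no box found or no window to search. Red marks the 2 called genes, Acta1 at -4.27 and Cnn2 at -1.56, and 29 of the 36 points lie left of 0.

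The fetal and hypertrophic program, the genes that reappear in the loaded heart, did not move as a block. Of its 18 genes 1 fell (Acta1), none rose and 17 did not pass, with a median log2 change of 0.42, which was 0.62 without dKO TAC replicate 2 and 0.1 without control TAC replicate 1. Myh7, the slow myosin heavy chain, had 4212, 2212 and 5339.8 CPM in dKO TAC, against 393, 379 and 1599 CPM in control TAC. The lowest dKO library lay above the highest control library, but the change of 2.31 ± 0.52 missed the threshold (edgeR Benjamini-Hochberg adjusted p 0.091). It passed in 1 of the 12 fits that left out a library (0.00647 without control TAC replicate 3), and its adjusted p was 0.0715 without dKO TAC replicate 2 and 0.272 without control TAC replicate 1. It passed with DESeq2 (Benjamini-Hochberg adjusted p 0.000504) and without dKO TAC replicate 2 and dKO sham replicate 1 (edgeR, 0.038). In that fit 5 of the 18 genes rose (Myh7, Xirp2, Mybpc2, Uchl1 and Enah) and 4 fell (Acta1, Myl4, Myl7 and Mybphl), against 2.37% and 1.04% of all genes tested. Myh6, the fast adult form, had 11154, 11316 and 14353 CPM in dKO TAC and 26891, 19331 and 13436 CPM in control TAC, which overlap (-0.7 ± 0.32, 0.555).

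The natriuretic peptides, markers of wall stress, had no called difference. Nppa had 1838, 1163 and 1992 CPM in dKO TAC and 810.4, 1599 and 1764 CPM in control TAC (0.26 ± 0.37, edgeR Benjamini-Hochberg adjusted p 0.911). Nppb had 621, 754 and 566 CPM in dKO TAC and 597, 880.4 and 588 CPM in control TAC (-0.09 ± 0.21, 0.956). Both pairs of groups overlap, and the SEs leave room for differences of either sign.

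In the sarcomere and Z-disc list 1 of 34 genes fell, none rose and the median log2 change was 0.06. The gene that fell was Mylk4, a kinase of the myosin light chain kinase family, with 22, 30.1 and 31 CPM in dKO TAC, against 166, 77.8 and 91.9 CPM in control TAC. No library of one group reached the other (-2.01 ± 0.32, edgeR Benjamini-Hochberg adjusted p 0.0243). The adjusted p was 0.0484 without dKO TAC replicate 2 and 0.0724 without control TAC replicate 1, the highest control library. The atrial light chains in this list had the lowest estimates. Myl7 had 0.474, 4.12 and 0.452 CPM in dKO TAC, against 71, 34.8 and 9.14 CPM in control TAC (-4.47 ± 1.27, 0.206). Myl4 had 3.28, 7.29 and 3.98 CPM in dKO TAC, against 115, 65.4 and 30 CPM in control TAC (-3.85 ± 0.95, 0.126). Both genes had non-overlapping groups and a control group that spread widely, and neither passed. The atrial markers sarcolipin Sln and Mybphl, had estimates of -4.65 and -4.69 (0.281 and 0.116).

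The intercalated disc joins cardiomyocytes mechanically and electrically. Of its 20 listed genes 1 rose, none fell and 17 had a positive estimate, as had 6771 of all 14712 genes tested. The median of the list was 0.42, and it was 0.54 without dKO TAC replicate 2 and 0.53 without control TAC replicate 1. The gene that rose was Cxadr, the coxsackievirus and adenovirus receptor, a junctional adhesion protein. It had 70.5, 42.5 and 79.9 CPM in dKO TAC, against 31, 25 and 22.6 CPM in control TAC, with no overlap (1.3 ± 0.23, edgeR Benjamini-Hochberg adjusted p 0.0353). The adjusted p was 0.006 without dKO TAC replicate 2 and 0.094 without control TAC replicate 1. Without dKO TAC replicate 2 and dKO sham replicate 1, 6 of the 20 rose (Cxadr, Cdh2, Gja1, Pkp2, Ank3 and Xirp2) and none fell. Over all genes tested in that fit 2.37% rose and 1.04% fell. Xirp2, an actin-binding protein of the disc, had 3545, 2028 and 3986 CPM in dKO TAC and 1209, 1869 and 986 CPM in control TAC (1.23 ± 0.32, 0.157). Plakophilin Pkp2 had 236, 193 and 246 CPM in dKO TAC and 153, 146 and 123 CPM in control TAC (0.68 ± 0.17, 0.135). In the neighbouring lists no gene passed, with medians of 0.04 over 32 costamere, integrin and dystrophin complex genes and -0.02 over 39 genes of actin filament dynamics. Among the actin dynamics genes destrin Dstn, which severs actin filaments, had 101, 85.6 and 99.3 CPM in dKO TAC and 185, 181 and 165 CPM in control TAC (-0.9 ± 0.18, 0.063).

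Of 26 potassium, sodium and pacemaker channel genes 1 fell, none rose and the median was -0.18. The gene that fell was Kcnip2, the accessory subunit of the channel that carries the fast transient outward current. It had 32.3, 37.2 and 50.6 CPM in dKO TAC, against 179, 94.9 and 104 CPM in control TAC, without overlap (-1.65 ± 0.28, edgeR Benjamini-Hochberg adjusted p 0.0297). The adjusted p was 0.0783 without dKO TAC replicate 2 and 0.094 without control TAC replicate 1. Its pore-forming partner Kcnd2 had 7.92, 5.99 and 14.2 CPM in dKO TAC and 17.5, 15.7 and 13.6 CPM in control TAC, which overlap (-0.74 ± 0.32, 0.52). The sodium channel subunit Scn4b had 5.85, 10.3 and 7.8 CPM in dKO TAC and 32, 18.1 and 15.9 CPM in control TAC (-1.46 ± 0.29, 0.0552), and it passed without dKO TAC replicate 2 (0.0488). No calcium handling gene passed among 30 tested, at a median of -0.1. Atp2a2, the calcium pump of the sarcoplasmic reticulum, had 5606, 6455 and 7119.9 CPM in dKO TAC and 12019, 8690.1 and 5534 CPM in control TAC, which overlap.

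**Figure D3:**
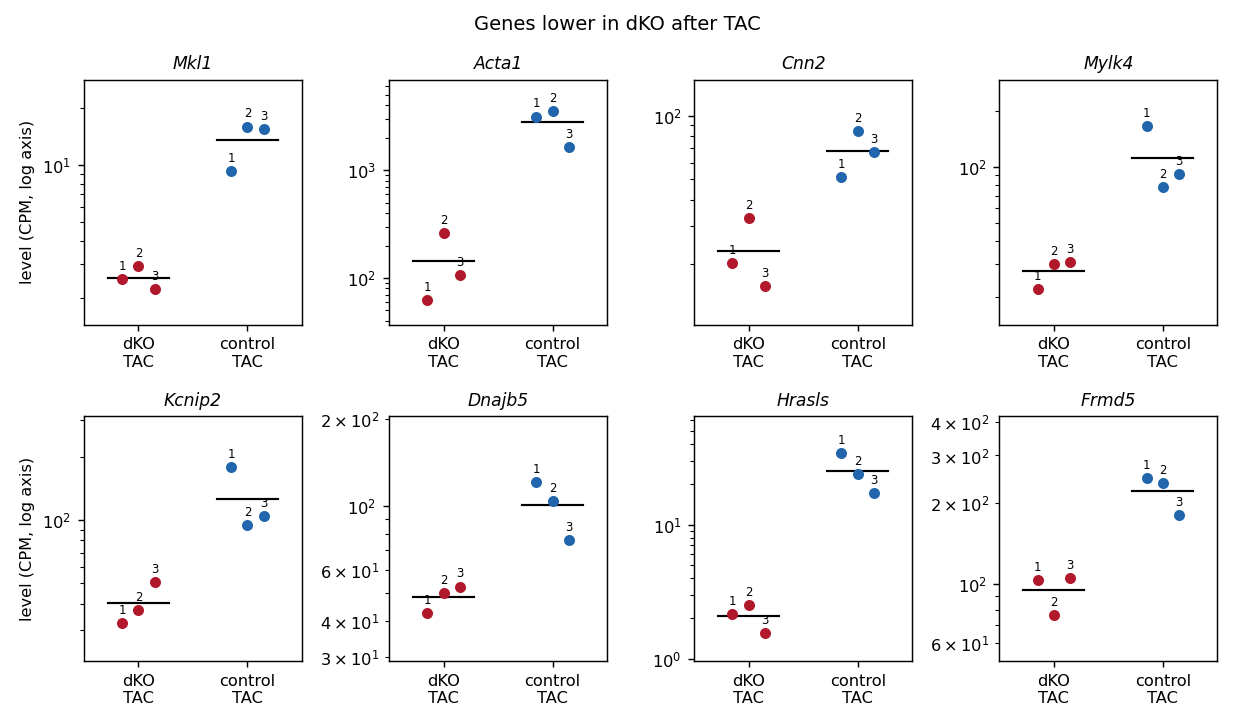
Levels in CPM on a log axis of 8 genes lower in dKO, with dKO TAC (red) left of control TAC (blue). Each point is a library numbered by replicate and each bar is the mean of 3, and in each gene every dKO TAC library lies below every control TAC library.

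Other genes that fell belong to no list. Hrasls, a phospholipid-modifying enzyme, had 2.16, 2.53 and 1.56 CPM in dKO TAC, against 34.3, 23.8 and 17.1 CPM in control TAC (-3.58 ± 0.5, edgeR Benjamini-Hochberg adjusted p 0.0105). It passed without dKO TAC replicate 2 (0.0284) and without control TAC replicate 1 (0.0429). Frmd5, a FERM domain protein, had 103, 76.3 and 105 CPM in dKO TAC and 247, 236 and 180.1 CPM in control TAC (-1.22 ± 0.19, 0.0241). Sh3kbp1, an adaptor of receptor endocytosis, had 41.8, 43.8 and 48.9 CPM in dKO TAC and 121, 92.1 and 81.9 CPM in control TAC (-1.13 ± 0.16, 0.0145). In these 3 genes all dKO libraries lay below all control libraries. Without control TAC replicate 1 the adjusted p was 0.094 for Frmd5 and 0.0505 for Sh3kbp1. The mitochondrial tRNA gene mt-Ti had 5.04, 2.84 and 2.87 CPM in dKO TAC and 18.3, 11.3 and 9.76 CPM in control TAC (-1.87 ± 0.34, 0.0397), and it did not pass without either library (0.116 without dKO TAC replicate 2, 0.145 without control TAC replicate 1).

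The chaperone list held 1 fallen gene among 25, Dnajb5, a DnaJ co-chaperone. It had 42.6, 49.8 and 52.5 CPM in dKO TAC, against 121, 104 and 75.9 CPM in control TAC (-1.05 ± 0.19, edgeR Benjamini-Hochberg adjusted p 0.0376). The call was lost without dKO TAC replicate 2 (0.0797) and without control TAC replicate 1 (0.145). The list's median log2 change was 0.05.

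Lcn2, one of the genes that rose, encodes lipocalin, an iron-siderophore-binding protein of the acute response, and had 25.8, 29.1 and 33.2 CPM in dKO TAC, against 3, 2.6 and 2.87 CPM in control TAC. The libraries within each group lay close together (3.38 ± 0.31, edgeR Benjamini-Hochberg adjusted p 0.000447), and the call held without each of the 12 libraries, at adjusted p up to 0.00841. Lcn2 was the only one of 22 cytokine and acute response genes that passed, and that list had a median of -0.47. Ceruloplasmin Cp, a copper-carrying ferroxidase, had 229.5, 139.5 and 199 CPM in dKO TAC, against 67.4, 60 and 68.2 CPM in control TAC (1.54 ± 0.2, 0.00785). It passed without dKO TAC replicate 2 (0.00195) and without control TAC replicate 1 (0.0438), and was lost without dKO TAC replicate 3 (0.0609).

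Gpx3, the secreted glutathione peroxidase, had 1347, 844 and 1762 CPM in dKO TAC, against 170.2, 273 and 439.9 CPM in control TAC (2.16 ± 0.37, edgeR Benjamini-Hochberg adjusted p 0.0313). Its groups did not overlap, and the adjusted p was 0.0235 without dKO TAC replicate 2 and 0.117 without control TAC replicate 1, the lowest library. It was the only called gene of 20 antioxidant and oxidative stress genes, whose median was 0.1. Masp1, a serine protease of the lectin pathway of complement, had 80, 29.2 and 86 CPM in dKO TAC, against 9.4, 11.1 and 13.7 CPM in control TAC (2.51 ± 0.34, 0.0105). Its adjusted p was 0.000338 without dKO TAC replicate 2, the lowest dKO library, and 0.0671 without control TAC replicate 1. Fstl3, a secreted inhibitor of activins, had 25.4, 19.9 and 25.3 CPM in dKO TAC, against 7.3, 12.4 and 9.76 CPM in control TAC (1.26 ± 0.21, 0.0296). It was the called gene among 24 of TGF-beta and BMP signalling, whose median was -0.08, and its adjusted p was 0.0284 without dKO TAC replicate 2 and 0.102 without control TAC replicate 1.

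Star, the carrier that brings cholesterol to the inner mitochondrial membrane, had 49.6, 47.8 and 56.5 CPM in dKO TAC, against 2.96, 15.1 and 12.3 CPM in control TAC (2.34 ± 0.44, edgeR Benjamini-Hochberg adjusted p 0.0397). The dKO libraries were close together and control TAC replicate 1 was far below the other controls, and without that library the change was 1.91 (0.0137). Without dKO TAC replicate 2 the adjusted p was 0.0692. Nt5e, the cell-surface nucleotidase that makes adenosine, had 74.2, 27.4 and 55.4 CPM in dKO TAC, against 12.7, 17.1 and 17.1 CPM in control TAC (1.75 ± 0.33, 0.0457). Its adjusted p was 0.00722 without dKO TAC replicate 2 and 0.203 without control TAC replicate 1. Serpinb1c, of the serine protease inhibitor family, had 13.8, 14.3 and 15.5 CPM in dKO TAC, against 1.39, 3.91 and 3.62 CPM in control TAC (2.29 ± 0.39, 0.0298), and the call was lost without dKO TAC replicate 2 (0.0527) and without control TAC replicate 1 (0.071).

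Arc, an immediate early gene best known from neurons, had 36.1, 121 and 108 CPM in dKO TAC, against 2.73, 6.48 and 6.92 CPM in control TAC (4.03 ± 0.72, edgeR Benjamini-Hochberg adjusted p 0.0374). The groups were far apart, and the adjusted p was 0.0692 without dKO TAC replicate 2 and 0.163 without control TAC replicate 1. Arc is not a member of the list of 22 immediate early genes, of which none passed. That list had a median of -0.31 with 18 negative estimates, against 7941 negative of 14712 over all genes tested. Without control TAC replicate 1 its median was -0.53, and 1 member fell. Shisa3, a membrane protein, had 9.44, 6.33 and 10.7 CPM in dKO TAC and 1.8, 2.85 and 2.9 CPM in control TAC (1.81 ± 0.31, 0.0298). Sh3rf2, a RING and SH3 domain adaptor, had 49.5, 30.1 and 43 CPM in dKO TAC and 18.5, 10.1 and 13.5 CPM in control TAC (1.54 ± 0.27, 0.0353). Both genes passed without dKO TAC replicate 2 (0.0243 and 0.0268) and not without control TAC replicate 1 (0.117 and 0.059). Among other genes that rose, named after their values were seen, were prion protein Prnp (0.95 ± 0.17, edgeR Benjamini-Hochberg adjusted p 0.0397) and the ETS factor Etv5 (1.3 ± 0.2, 0.0168). Both passed without dKO TAC replicate 2 (0.0202 and 0.00489) and not without control TAC replicate 1 (0.173 and 0.094), and they kept the call in 2 and 7 of the 12 fits that left out a library.

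**Figure D4:**
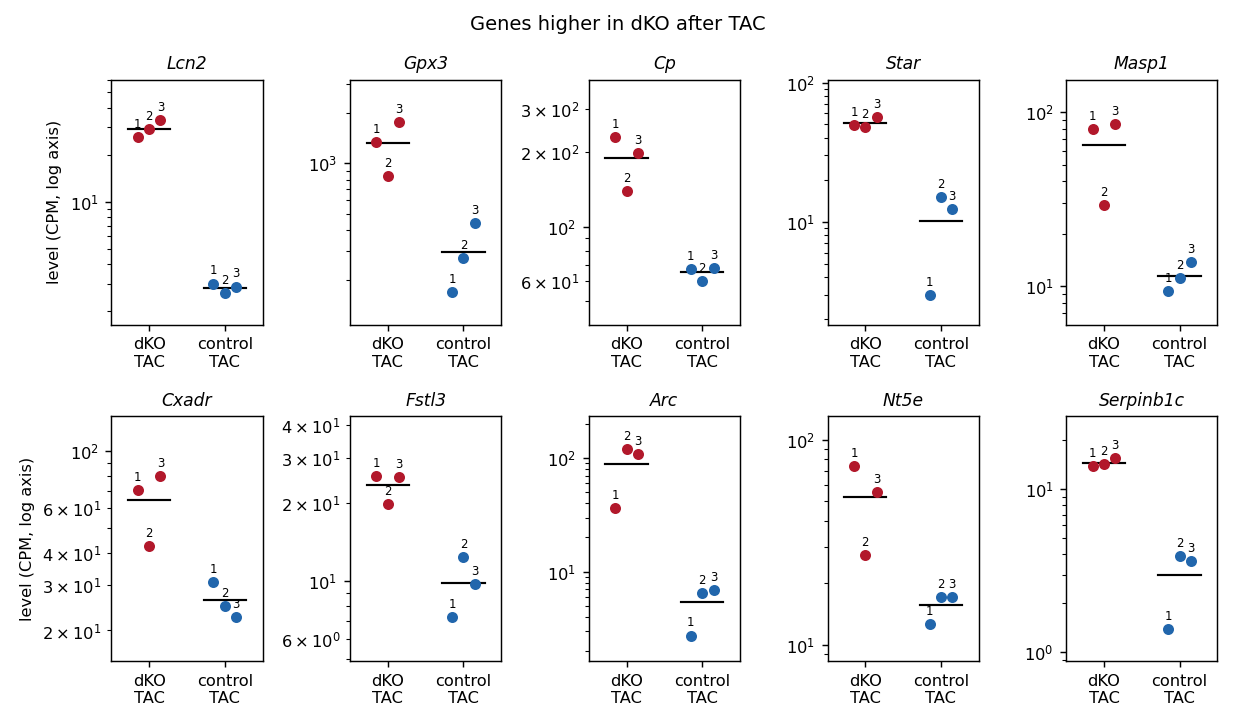
Levels in CPM on a log axis of 10 genes higher in dKO, with dKO TAC (red) left of control TAC (blue). Each point is a library numbered by replicate and each bar is the mean of 3, and in each gene every dKO TAC library lies above every control TAC library.

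The programs of non-muscle cells and of metabolism gave no calls. Of 38 extracellular matrix genes none passed, with a median of -0.35 that was -0.31 without dKO TAC replicate 2 and -0.79 without control TAC replicate 1. Of the 38 estimates 32 were negative, against 7941 of 14712 over all genes tested. Periostin Postn had 1289, 690.3 and 1038 CPM in dKO TAC and 136, 763 and 2364 CPM in control TAC, so that the control libraries spanned the dKO ones. Collagen Col1a1 did likewise, with 521, 422 and 441 CPM in dKO TAC and 181, 695 and 1812 CPM in control TAC (-0.96 ± 0.66, edgeR Benjamini-Hochberg adjusted p 0.759). None of 26 cell cycle genes (median -0.19), 37 genes of fatty acid uptake and oxidation (-0.28), 49 nuclear genes of oxidative phosphorylation (-0.05), 34 of glucose uptake, glycolysis and glycogen (0.15) or 17 YAP-TEAD targets (-0.1) passed. Ndufs5, a complex I subunit that was called lower (-5.3) and is described near the end, is not a member of the oxidative phosphorylation list. The median for fatty acid genes was -0.01 without control TAC replicate 1. The 35 cytosolic ribosomal proteins had a median of 0.22, with 33 positive, that turned to -0.09 without dKO TAC replicate 2. Of 21 muscle atrophy, autophagy and FoxO genes none passed, at a median of 0.29. In that list the ubiquitin ligase Fbxo32 had 223, 123 and 258 CPM in dKO TAC and 114, 66.6 and 85 CPM in control TAC (1.18 ± 0.29, 0.124), and it passed without dKO TAC replicate 2 (0.0392).

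**Figure D5:**
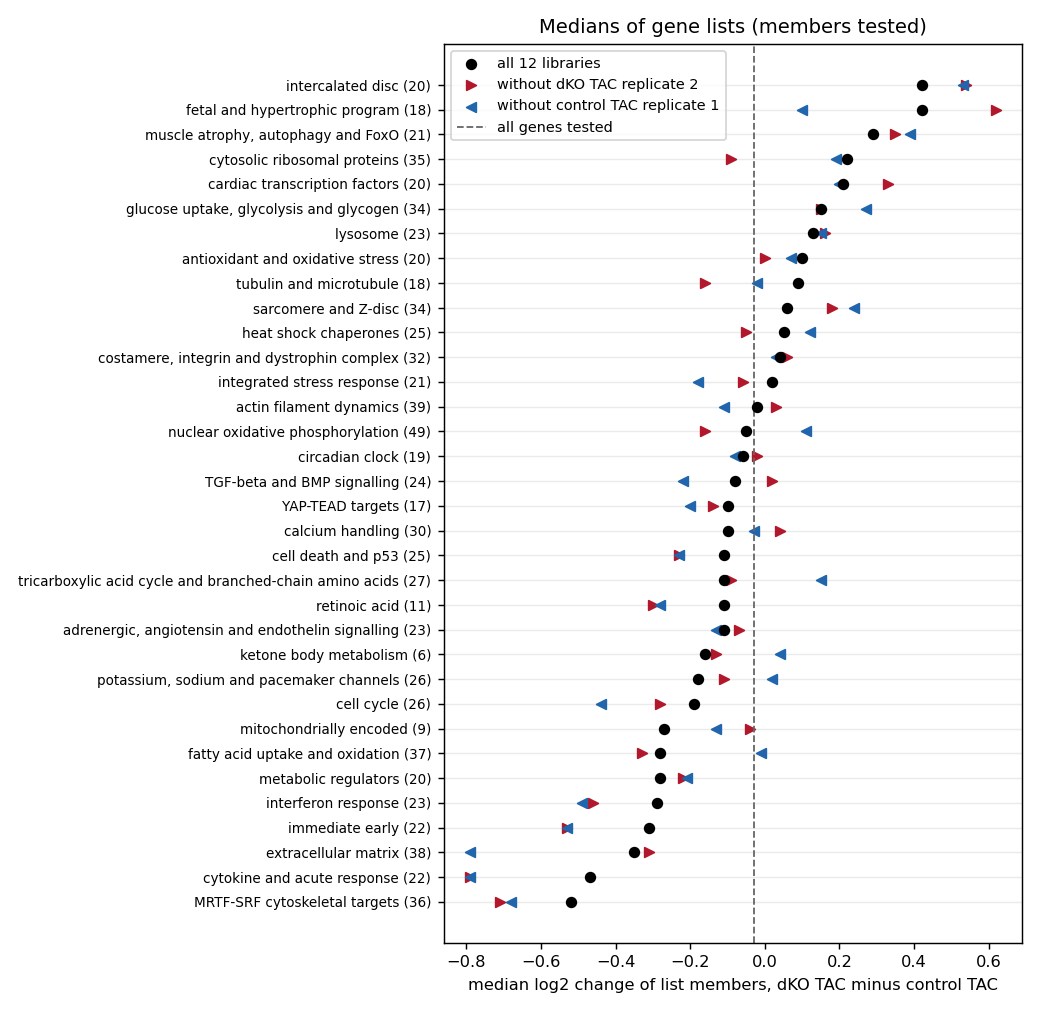
Median log2 change in dKO TAC relative to control TAC (horizontal) of each of 34 gene lists, with the number of members tested in brackets. Circles use all 12 libraries, red triangles leave out dKO TAC replicate 2, blue triangles leave out control TAC replicate 1, and the dashed line is the median of all genes tested, with the MRTF-SRF targets at -0.52 over all 12 libraries, at -0.71 without dKO TAC replicate 2 and at -0.68 without control TAC replicate 1.

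Cell type markers were summed per library because sedimentation can leave other cells behind. In bulk RNA, fewer cells of a type and less RNA per cell cannot be told apart. The 6 cardiomyocyte markers summed to 34278 to 39915 CPM in dKO TAC and 39631 to 64852 CPM in control TAC. All 6 were present at high levels in every library, as the labelled cell type would have them. The 18 fibroblast markers summed to 1839.9 to 2155 CPM in dKO TAC and 1210.4 to 4989 CPM in control TAC, the 21 macrophage markers to 402 to 698 CPM in dKO TAC and 332 to 1037 CPM in control TAC, and the 16 endothelial markers to 1508 to 2498 CPM in dKO TAC and 2136 to 2843 CPM in control TAC. The groups overlapped in these 3 sums. The 16 lymphocyte and blood markers summed to 7.14 to 20.6 CPM in dKO TAC and 29.5 to 64 CPM in control TAC, and the 13 epicardial and nerve markers to 30.6 to 39.1 CPM in dKO TAC and 40.1 to 88.4 CPM in control TAC, without overlap. The 12 smooth muscle and pericyte markers summed to 5034 to 5579 CPM in dKO TAC and 3656 to 4629 CPM in control TAC, without overlap. Desmin Des, which cardiomyocytes also express, made up most of that sum, with 4087 to 4827 CPM in dKO TAC and 2523 to 3457 CPM in control TAC. The other 11 summed to 948, 1021 and 751 CPM in dKO TAC, against 1133, 1459 and 1172 CPM in control TAC, lower in each dKO library. The 12 atrial myocyte markers summed to 2215 to 4007 CPM in dKO TAC and 1982 to 2648 CPM in control TAC, to which Nppa gave 1163 to 1992 CPM in dKO TAC and 810.4 to 1764 CPM in control TAC. Pam, an enzyme of peptide amidation, had 1531, 996 and 1958 CPM in dKO TAC and 870.2, 769 and 758 CPM in control TAC, higher in every dKO library, while Myl4, Myl7, Sln and Mybphl were lower in every dKO library. Without dKO TAC replicate 2 and dKO sham replicate 1, 1 of the 10 atrial markers tested rose (Pam) and 5 fell (Myl4, Myl7, Sln, Mybphl and Stard10). Over all genes tested in that fit 2.37% rose and 1.04% fell. No marker of these 8 lists passed the threshold over all 12 libraries. The part of cell composition in the results was not tested.

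Several of the largest changes lie in genes with near-identical copies, and these are uncertain because the counting could assign a read to either copy. Ndufs5, a subunit of complex I, had 1.05, 0.998 and 0.821 CPM in dKO TAC, against 45.1, 35.7 and 33 CPM in control TAC (-5.3 ± 0.42, edgeR Benjamini-Hochberg adjusted p 0.000183). BC002163, a processed pseudogene on chromosome 16 whose transcript of 319 nt matches Ndufs5 at 99.37% over its whole length, had 54.9, 78.5 and 61.2 CPM in dKO TAC, against 1.24, 0.854 and 0.783 CPM in control TAC (6.08 ± 0.44, 0.000104). The counts thus sat on Ndufs5 in control and on the copy in dKO. Their sums were 55.9, 79.5 and 62.0 CPM in dKO TAC and 46.3, 36.5 and 33.8 CPM in control TAC, a log2 ratio of the means of 0.76. Eif3j2 had 5.48, 5.64 and 10.6 CPM in dKO TAC, against 0.0749, 0.0712 and 0.131 CPM in control TAC, while its sum with Eif3j1 was 23.6, 23.3 and 21.5 CPM in dKO TAC and 27.8, 22.9 and 19.0 CPM in control TAC. Gm14085 had 2.1, 3.62 and 4.6 CPM in dKO TAC and 0 counts in each control TAC library, against a floor of 3 counts, or 0.0979 to 0.112 CPM per library. Its sum with its copy Slc28a2 was 23.7, 29.1 and 20.7 CPM in dKO TAC and 35.6, 35.3 and 39.2 CPM in control TAC. That is a log2 ratio of the means of -0.58. For the sum of Rpl3-ps1 and Rpl3 the log2 ratio of the means was 0.56. In all, 10 of the 63 called genes were at least 95% identical to another gene over at least 90% of their transcript, and all 10 were among the genes that rose. Ndufs5, which fell, is not among the 10, because its match to BC002163 covers 46.9% of its longer transcript. At the looser limit of 90% identity over 100 nt, 33 of the 62 called genes searched had a match in another gene. Fstl3 matched Prss57 over 59.2% of its transcript and Etv5 matched Gm4798 over 42.8%. Plscr1 matched Gm5530 over 42.7% and Serpinb1c matched Serpinb1a over 35.2%. The part of such shared stretches in their counts was not tested. Predicted genes and pseudogenes made up 17 of the 63, 15 of them higher and 2 lower. Genes were counted as predicted by name alone (Gm, Rik or numbered clone), here and in the choice of named genes. Some of them, such as Gm14085, are annotated as protein-coding, and some as long noncoding RNA. One of the 2 lower genes, Gm45670, is annotated as antisense, and reads of its overlapping partner cannot be told apart since no source used here states how strand was treated in counting.

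The positions of called genes relative to the altered loci were also recorded. Within 20 Mb of Mkl1, 2 of 355 tested genes were called (0.563%), namely Arc and Psca at 6.34 and 6.3 Mb. Psca had 10.7, 5.27 and 12.5 CPM in dKO TAC, against 0, 0.142 and 0.0979 CPM in control TAC. Within 20 Mb of Mkl2, 5 of 231 were called (2.16%), among them Masp1 and Hrasls at 10.2 and 16.0 Mb. Together the windows held 7 called of 586 tested (1.19%), against 55 of 14124 elsewhere (0.389%), leaving out Mkl1 and Mkl2 themselves. Whether DNA around the altered alleles differs between the mouse strains was not tested.

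Whether the genotype difference depended on pressure overload was examined with the sham groups. Of the 63 genes 59 had an estimate of the same direction after sham, a share that was not counted over all genes tested. Over all 14712 genes tested 10 passed after sham, and 9 of these were among the 63. Besides Acta1 and Mkl1, these 9 were genes with near-identical copies, among them Ndufs5, BC002163, Eif3j2, Rpl3-ps1 and Gm14085. The test of the difference between the genotype effect after TAC and that after sham called no gene (edgeR quasi-likelihood test, 697 at an unadjusted p under 0.05), with 8 called by DESeq2 and none by limma-voom. The smallest adjusted p among the 63 genes was 0.515 (edgeR, Benjamini-Hochberg). Acta1 had 8.97, 8.2 and 13.4 CPM in dKO sham, against 168, 364 and 158 CPM in control sham. Its change was -4.5 after sham and -4.27 after TAC, and the difference between these effects was 0.22 ± 0.7. Lcn2 had 6.64, 3.31 and 2.94 CPM in dKO sham and 1.05, 0.728 and 1.34 CPM in control sham (2.02). Some genes had small estimates after sham, with none of these differences past the threshold. Kcnip2 had 226, 157 and 137 CPM in dKO sham and 206, 185 and 213 CPM in control sham (-0.21, against -1.65 after TAC). Nt5e had 13.6, 15.8 and 11.2 CPM in dKO sham and 12.6, 16.6 and 23.3 CPM in control sham (-0.37, against 1.75). Nppb was lower in dKO after sham, with 101, 99.5 and 127 CPM in dKO sham and 272, 264 and 313 CPM in control sham, a change of -1.38 (edgeR Benjamini-Hochberg adjusted p 0.0458) beside -0.09 after TAC. The difference between its effects, 1.29, was not past the threshold (0.841).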

How the data were processed

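The study measured cardiomyocyte RNA in 12 mouse libraries, 3 in each of 4 groups. The authors deposited 1 table of raw counts, whole numbers for 49568 genes. Per the submitters' processing notes reads were handled with Trimmomatic 0.36, STAR 2.5.2b, featureCounts and Subread 1.5.0p3 on GRCm38.p5. The settings, the annotation, the strand option and how multi-mapping reads were counted are not given here, and that counting can move reads between near-identical genes. Per the labels' protocols, poly(A) RNA from 200 ng of total RNA gave stranded libraries, with single-end reads of 100 nt.

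Counts were tested in R 4.3.3 with edgeR 4.0.16 (quasi-likelihood F test, TMM scaling, filterByExpr by group). The fit used all 12 libraries, 4 group means and 8 residual degrees of freedom, and genes were called at 0.05 after Benjamini-Hochberg adjustment over all genes tested. An SE is the size of the log2 change divided by the root of its F statistic. The smallest counts lie near a floor of 3 counts per library, and precision beyond it is set by the number of libraries. The interaction was tested in the same fit. Alternatives were RLE scaling, no filter, DESeq2 1.42.0, limma-voom (limma 3.58.1), the 6 TAC libraries alone, a replicate block, removal of the transcript-length trend and libraries left out. The steps were tested on simulated counts. No 2 libraries of a group were duplicates, with a chi-square per degree of freedom of at least 17.34.

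Members and gene lists were chosen with earlier results of these data known, so list counts and medians are descriptions. Named genes are Mkl1, Mkl2, Myocd, Srf, Nppa, Nppb, Myh6, Myh7 and Acta1, the 10 called genes with the highest and the 10 with the lowest change among those that averaged at least 5 CPM over the TAC libraries and did not overlap between groups (predicted genes and pseudogenes left out), and up to 4 called members of each list. All further genes were named with their values in view. A called gene is not reported here by name. Genes were matched by symbol to GENCODE mouse release M21 on GRCm38 (14557 of 14712). Copies were searched with blastn 2.17.0 among its transcripts, at 90% identity over 100 nt, for 62 of the 63 called genes. Promoters are from RefSeq (GRCm38.p6). Figures were drawn with matplotlib 3.10.9 (Python 3.11.15).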

Additional observations from a re-analysis of the deposited data

How the results depend on the processing

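With dKO TAC replicate 2 and control TAC replicate 1 both left out, 24 genes were higher and 8 lower (32 in all). Calls numbered 129 (78 higher, 51 lower) without a filter on low counts, 320 (202 and 118) with DESeq2 and 112 (75 and 37) with the transcript-length trend removed. Leaving out dKO TAC replicate 2 together with dKO sham replicate 1 gave 508 (353 and 155). RLE scaling, limma-voom and the 6 TAC libraries alone stayed within 1.5 times of the 63 calls, though not all genes called were the same. With the 6 TAC libraries alone, Cnn2, Kcnip2, Gpx3, Cxadr, Dnajb5, Star, Nt5e, Fstl3, Frmd5, Sh3kbp1, Sh3rf2 and mt-Ti did not pass. Their adjusted p there was 0.0579 to 0.0951 (edgeR, Benjamini-Hochberg). Acta1, Mkl1, Lcn2, Hrasls, Ndufs5, Cp, Masp1, Mylk4, Arc, Serpinb1c and Shisa3 passed there, at up to 0.047. Leaving out 1 library gave 8 to 252 calls, 6 to 164 higher and 2 to 88 lower. The interaction called 0 to 1 genes with 1 library left out, 5 without a filter, 8 with DESeq2, 1 with the length trend removed, 1 with dKO TAC replicate 2 and control TAC replicate 1 left out, and 2 with dKO TAC replicate 2 and dKO sham replicate 1 left out. With the replicate number as a block, 41 genes were called, 26 higher and 15 lower. Deviations from the group mean correlated at -0.244, 0.133 and -0.078 in same-numbered libraries of dKO TAC and control TAC. In libraries with different numbers they correlated at -0.23 to 0.225. Deviations from a mean of 3 libraries are tied to each other, so these values cannot decide whether the numbers pair the samples. The cause of the differences in calls was not tested.

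Of 630 values for 30 named genes under the alternatives, 446 kept direction and side of the threshold, 165 lost and 10 gained the call, and 9 changed sign, all in genes not called. Myocd turned positive without control TAC replicate 1 (0.14), dKO TAC replicate 2 (0.28) or dKO sham replicate 3 (0.00), with dKO TAC replicate 2 left out beside control TAC replicate 1 (0.42) or dKO sham replicate 1 (0.27), and with the length trend removed (0.01), and lay between -0.19 and 0.28 with 1 library left out. Nppa was -0.01 without control TAC replicate 1 and lay between -0.01 and 0.48 over single libraries left out. Nppb was 0.14 without control TAC replicate 2 and 0.01 without dKO TAC replicate 3, in a range of -0.2 to 0.14. Of 882 list medians 26 moved by more than their spread. With 3 libraries a group, the number of genes that passed changed with the library left out and with the method.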

Other observations

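The genes described here, except Nr4a3, passed the test between dKO TAC and control TAC without belonging to a list. All of them were picked after their values were seen. Anks1, an ankyrin repeat adaptor, had 34.9, 38.5 and 39.8 CPM in dKO TAC and 96.9, 73.8 and 74.5 CPM in control TAC (log2 -1.11 ± 0.16, edgeR Benjamini-Hochberg adjusted p 0.0145, and 0.0671 without control TAC replicate 1). Rtn4r, the Nogo receptor, had 0.372, 1.18 and 0.493 CPM in dKO TAC and 7, 6.19 and 3.07 CPM in control TAC (-2.96 ± 0.5, 0.0298, and 0.109 without control TAC replicate 1). Both genes had each dKO library below each control library.

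Among the genes that rose, Serpinb6b, a relative of Serpinb1c, had 139.8, 105 and 145 CPM in dKO TAC and 48.8, 47.4 and 65.5 CPM in control TAC (1.27 ± 0.19, edgeR Benjamini-Hochberg adjusted p 0.0165, and 0.094 without control TAC replicate 1). Serpinb6b, Serpinb1c and Mylk4 lie close together on chromosome 13, the first 2 higher and Mylk4 lower in dKO TAC. Plscr1, a phospholipid scramblase, had 40.7, 35.4 and 41.7 CPM in dKO TAC and 16.5, 22.5 and 14.7 CPM in control TAC (1.13 ± 0.18, 0.0241, and 0.113 without control TAC replicate 1). Muc15, a membrane mucin, had 7, 2.53 and 5.63 CPM in dKO TAC and 0.0374, 0.498 and 0.261 CPM in control TAC (4.21 ± 0.73, 0.0397, and 0.117 without control TAC replicate 1), with control TAC replicate 1 below its floor of 3 counts (0.112 CPM). It kept the call in 3 of the 12 fits that left out a library. The orphan nuclear receptor Nr4a3 had 3.11, 2.93 and 4.52 CPM in dKO TAC and 8.57, 13.4 and 42.9 CPM in control TAC, without overlap. Its change of -2.62 ± 0.53 passed without control TAC replicate 1 (edgeR Benjamini-Hochberg adjusted p 0.0429) and not over all libraries (0.0623).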
